A study of Mus musculus with 16 samples.

Results

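The aminoacyl-tRNA synthetases were taken from the gene table by symbol, as every gene named by 1 letter followed by ars (with or without a final 1 or 2), together with Eprs, Farsa and Farsb. The rule found 37 of 14552 genes, and all 37 were among the 13355 genes with a mean of at least 10 normalized counts that were tested. A symbol ending in 2 marks the mitochondrial enzyme, which gave 17 mitochondrial genes. The other 20 genes were classed as cytosolic, with the reservation that Gars and Kars are known to encode both forms of their enzyme. No measured value entered the rule, but the set was chosen with earlier results of these data known.

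The cells were E14 mouse embryonic stem cells that carried Ddx10-AID, a fusion of the RNA helicase DDX10 to an auxin-inducible degron, and Tir1. Tir1 is a plant receptor that directs degron-bearing proteins to degradation when auxin is present. All 8 groups shared this genotype, and all grew in serum and LIF with the GSK3 inhibitor CHIR99021 and the MEK inhibitor PD0325901. The groups were untreated cells, cells kept for 2, 4, 6 or 12 h or for 1 or 2 days with auxin (indole-3-acetic acid at 500 µM), and cells given 2 days of auxin and then 2 days free of it (the withdrawal group). There were 2 mRNA sequencing libraries per group and 16 in all. The labels do not say whether paired libraries are separate cultures, nor whether the line is 1 clone, and the p-values therefore reflect a spread that may be technical. Auxin-treated cells without the degron were not analysed here, so effects of the compound and effects of losing DDX10 cannot be told apart.

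Each synthetase joins 1 amino acid to its tRNAs and so supplies the ribosome with its substrates. Cytosolic enzymes serve translation in the cytoplasm, and several of them sit with the scaffold proteins AIMP1, AIMP2 and EEF1E1 (AIMP3) in the multisynthetase complex, while a separate set of nuclear genes serves the mitochondrial ribosome. Many cytosolic synthetase genes are described as targets of ATF4, the main transcriptional effector of the integrated stress response, which is itself controlled largely at translation and binds composite C/EBP-ATF elements. The mitochondrial genes are not usually placed in that program.

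Promoters are shown here because the C/EBP-ATF element could be read from sequence that is independent of the counts. RefSeq promoter windows on GRCm38.p6, which run from 250 bases before to 50 bases after a gene's start, were at hand for 27 of the 37 genes. The core of the element, TGATGNAA, was searched on both strands and reads TTNCATCA on the reverse strand. It was found for 5 of these 27 genes (18.5%), against 4.51% of all 27025 genes with a window and 2.56% of the 9825 tested ones. Counted by window, it was in 3.97% of all 32851 windows of the same length. The 5 genes were Aars, Gars, Iars, Tars and Yars, all cytosolic. Among the windows at hand, 5 of 13 cytosolic and 0 of 14 mitochondrial genes held the letters. For each of the 5 a stretch is printed 5′ to 3′ along the gene's strand with the match in capitals. Positions count from the RefSeq start, with 1 as the first transcribed base and -1 as the base before it.
Aars, match from base 10, chr8:111033840-111033869, plus strand: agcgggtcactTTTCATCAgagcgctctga
Gars, match from base -30, chr6:55037881-55038000, plus strand: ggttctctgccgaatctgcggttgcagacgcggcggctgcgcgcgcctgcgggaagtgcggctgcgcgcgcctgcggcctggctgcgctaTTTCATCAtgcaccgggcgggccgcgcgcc
Iars, match from base 8, chr13:49682126-49682155, plus strand: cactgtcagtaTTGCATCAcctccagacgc
Tars, match from base -15, chr15:11399659-11399778, minus strand: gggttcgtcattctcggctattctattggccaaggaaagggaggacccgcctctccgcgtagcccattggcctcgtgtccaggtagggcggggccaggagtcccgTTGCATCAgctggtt
Yars, match from base 4, chr4:129189895-129189924, plus strand: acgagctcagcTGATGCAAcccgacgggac
Against GENCODE M21, the Gars stretch lies in no exon of Gars and 7 of the 120 bases of the Tars stretch lie in an exon of 1 Tars transcript. The 30-base stretches of Aars, Iars and Yars lie within annotated exons, of 1 Aars transcript and of 2 transcripts each for Iars and Yars. A match of letters is a description of the window and not a measured binding site.

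Each library held about 13.6 M to 17.5 M reads, estimated from the steps between low values, and log2 changes had a median standard error of 0.16. The stem cell genes Pou5f1 (13540 to 25250 normalized counts) and Nanog (14270 to 17570) were high in every library. Levels of stem cell genes moved during the course. Of the 8 listed, 3 were lower and 1 higher than untreated at 12 h, beside 18.3% and 14.8% of tested genes. At 2 days 3 were lower and 3 higher, beside 23.8% and 21.0%. Utf1 was at 5013 and 4490 (untreated), 1023 and 1110 (12 h), 2278 and 2061 (2 days) and 5159 and 5233 (withdrawal), and Pou5f1 at 23170 and 22340, 13540 and 13550, 18900 and 17660, and 25250 and 24790 in the same groups. The 10 markers of feeders and of other lineages that were measured stayed at or below 112.8, and the lowest was 0. Their sum was 350.1 and 275.5 (untreated), 312.7 and 269.6 (2 days) and 257.6 and 243.2 (withdrawal). Of the 8 that were tested, 1 was lower and 1 higher at both 1 and 2 days. Of all tested genes 17.7% and 23.8% were lower at these times and 15.9% and 21.0% higher. At 2 days the feeder marker Thy1 was at 23.19 and 16.76 against 50.99 and 83.52 untreated (-1.68). The endoderm marker Gata6 was at 23.97 and 11.09 against 1.24 and 4.062 (2.37). The other measured feeder marker, Col1a1, was at 74.39 and 50.67 against 56.97 and 23.32 and was not called. The trophectoderm marker Cdx2 was called lower at 2 h (-1.55) and 6 h (-1.46). The part of these changes in the synthetase results was not tested. The degron acts on the protein, so mRNA levels do not check the loss of DDX10. Replicates were farther apart in untreated cells and at 1 day, where the log2 difference between them had an SD over genes of 0.62 and 0.53, than in the other 6 groups (0.37 to 0.41). All groups shared 1 estimate of the spread per gene, so standard errors and p-values against untreated or 1 day may be too small. The 8 libraries of 2 to 12 h stood apart as a block: for 1015 tested genes (7.6%) they did not overlap the other 8. In comparisons with untreated cells this block and an early effect of auxin cannot be told apart, so the early times are also given against 2 h. None of the 20 cytosolic genes separated the block from the other libraries. Among mitochondrial genes Lars2, Mars2 and Vars2 did.

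Cytosolic synthetase transcripts fell together under auxin and were back near the untreated level after withdrawal. An F-test over the 8 groups called all 20 cytosolic and 11 of 17 mitochondrial genes, beside 68.6% of all tested genes. At 2 days 18 of 20 cytosolic genes were lower than in untreated cells and 0 were higher, where 23.8% of all tested genes were called lower. Their median log2 change was -0.77, against -0.01 for all tested genes. The 20 genes together held 112000 and 112300 normalized counts (untreated), 66580 and 66070 (2 days) and 109800 and 107600 (withdrawal). As a share of each library's total this was 0.662% and 0.685% untreated, 0.447% and 0.444% at 2 days and 0.663% and 0.656% after withdrawal. Mitochondrial transcripts showed no common direction: 5 of 17 were lower and 4 were higher at 2 days, beside 21.0% of all tested genes called higher. In bulk RNA a change in the share of cells that express a gene and a change of RNA per cell cannot be told apart. Log2 changes are on the log2(value + 1) scale, and a gene is called where the limma p adjusted by Benjamini-Hochberg over all tested genes is below 0.05.

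**Figure D1:**
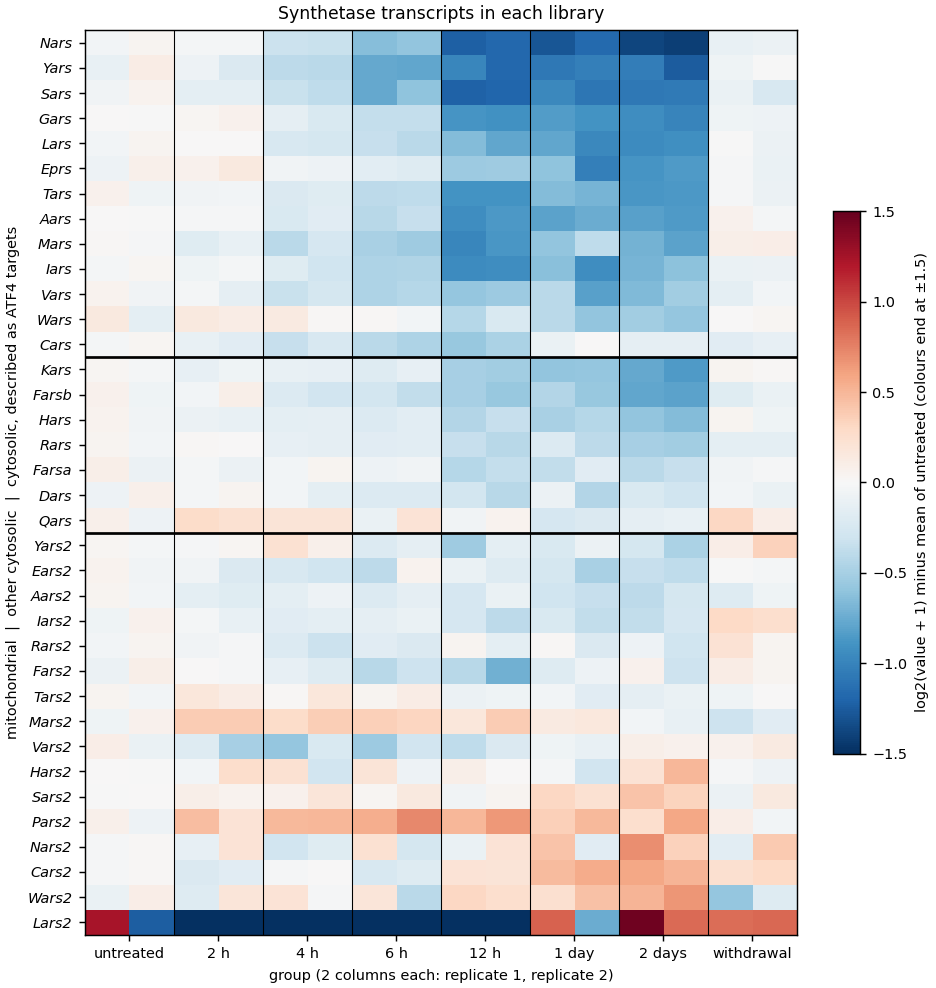
Each row is 1 of 36 synthetase genes and each pair of columns the 2 libraries of a group; colour is log2(value + 1) minus the untreated mean, with colours ending at ±1.5. The 13 cytosolic genes described as ATF4 targets, apart from Cars at 1 and 2 days, and most of the other 7 turn blue in both libraries from 12 h to 2 days. They are pale again after withdrawal. The mitochondrial rows hold both colours, and the Lars2 row changes colour between blocks of libraries.

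The fall built up over the first 12 h. At 2 h none of the 20 cytosolic genes was called (8.45% of tested genes were lower), and their median log2 change was -0.04. At 4 h 10 were lower with a median of -0.20 (10.2% of tested genes lower). The 6 h libraries gave 12 lower genes and a median of -0.37 (13.4%), the 12 h libraries 19 and -0.55 (18.3%), and the 1-day libraries 17 and -0.60 (17.7%). No cytosolic gene was called higher than untreated at any time. These comparisons share the untreated libraries and are not independent of each other. Against the 2 h libraries, which lie inside the early block, 2 genes were lower at 4 h (0.681% of tested genes lower) and 12 and 19 were lower at 6 and 12 h (3.35% and 13.7%), with medians of -0.18, -0.34 and -0.60. When the libraries of 2 to 12 h were fitted alone these counts were 9, 15 and 20. Neither of the 2 calls at 4 h against 2 h (Gars and Nars) was kept when any 1 of the 4 libraries was left out, with adjusted p-values from 0.1 to 0.4. The call at 4 h was the least firm: the 10 genes became 6 without either untreated library, 2 without the first 4 h library, 3 without the second and 0 when both groups were fitted alone. The 12 genes at 6 h against 2 h became 6 without the second 2 h library, 7 without the first 6 h library and 6 without the second 6 h library.

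**Figure D2:**
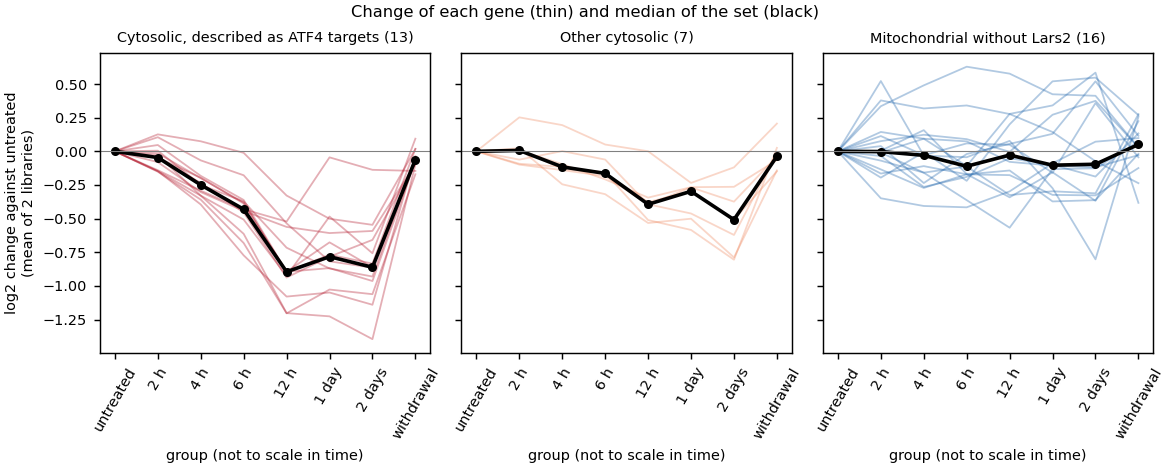
The x axis gives the 8 groups in order, not to scale in time, and the y axis the log2 change of the mean of 2 libraries against untreated; thin lines are genes and the black line is the median. The 13 cytosolic genes described as ATF4 targets reach a median of -0.90 at 12 h, the other 7 cytosolic genes reach -0.51 at 2 days, and the 16 mitochondrial genes without Lars2 stay near 0 in the median.

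The largest falls were those of Nars, Yars and Sars, which load asparagine, tyrosine and serine. Nars (chr18:64499647-64516652 in GENCODE M21 on GRCm38, minus strand) was at 7189 and 7558 normalized counts (untreated), 7208 and 7241 (2 h), 5893 and 5840 (4 h), 4744 and 4894 (6 h) and 3146 and 3260 (12 h). It was at 3026 and 3278 (1 day), 2830 and 2771 (2 days) and 6835 and 6946 (withdrawal). From 4 h to 2 days both Nars libraries of every group lay below both untreated libraries, and the decline had no reversal up to 12 h. At 2 days Nars was 62.0% lower than untreated, a log2 change of -1.40 ± 0.06 (SE, limma adjusted p = 4.63e-09). It was also the 1 gene whose fall at 4 h (-0.33 ± 0.06, limma adjusted p = 0.00224) was called without each library in turn.

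Yars (chr4:129189760-129219607, plus strand) held 4384 and 5075 normalized counts (untreated), 4473 and 4054 (2 h), 3599 and 3575 (4 h), 2772 and 2747 (6 h) and 2389 and 2084 (12 h). The later libraries held 2235 and 2323 (1 day), 2303 and 1987 (2 days) and 4493 and 4713 (withdrawal). From 4 h on no Yars library under auxin reached the untreated range, and the withdrawal libraries lay within it. The log2 change was -0.77 ± 0.09 at 6 h and -1.14 ± 0.09 at 2 days (limma adjusted p = 8.8e-05 and 6.04e-07). Sars (chr3:108424865-108445209, minus strand) was at 3802 and 4101 (untreated), 3558 and 3553 (2 h), 3132 and 3027 (4 h), 2327 and 2604 (6 h), 1697 and 1730 (12 h), 2018 and 1859 (1 day), 1884 and 1898 (2 days) and 3692 and 3333 (withdrawal). Sars was lowest at 12 h, with a log2 change of -1.20 ± 0.08 (limma adjusted p = 2.22e-07), and stood at -1.06 ± 0.08 at 2 days. No Sars library of the auxin or withdrawal groups reached the untreated range, although the difference after withdrawal (-0.17) was not called.

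Gars, Aars and Tars, whose enzymes act outside the multisynthetase complex, fell by close to equal amounts at 12 h. These falls were smaller than those of Nars, Yars and Sars. Gars, which loads glycine, held 8359 and 8298 normalized counts (untreated), 8533 and 8675 (2 h), 7582 and 7105 (4 h), 6484 and 6480 (6 h), 4509 and 4445 (12 h), 4647 and 4480 (1 day), 4361 and 4179 (2 days) and 7946 and 7906 (withdrawal). Gars was above the untreated pair at 2 h and below it in every later group, and at 2 days it was 48.7% lower (-0.96 ± 0.06, limma adjusted p = 3.8e-08). Aars, the alanine enzyme, was at 12040 and 11990 (untreated), 11900 and 11900 (2 h), 10250 and 10680 (4 h), 9015 and 9434 (6 h), 6300 and 6608 (12 h), 6911 and 7201 (1 day), 6832 and 6645 (2 days) and 12530 and 11820 (withdrawal). Its log2 change was -0.90 ± 0.06 at 12 h and -0.83 ± 0.06 at 2 days (limma adjusted p = 2.11e-07 and 1.49e-07). Tars, the threonine enzyme, followed the same course, from 6331 and 5799 (untreated) to 3256 and 3259 (12 h) and 3321 and 3347 (2 days), with 5979 and 5710 (withdrawal). Its changes were -0.90 ± 0.06 at 12 h and -0.86 ± 0.06 at 2 days (limma adjusted p = 3.41e-07 and 1.61e-07). These 3 genes are among the 5 with the element in their window. No window was at hand for Nars, and the windows of Sars, Eprs, Mars and Kars did not hold the element. Aars shares 22.4% of the 50-base words of its main transcript with the overlapping gene Exosc6 on the same strand, so how reads of that stretch were assigned is uncertain.

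**Figure D3:**
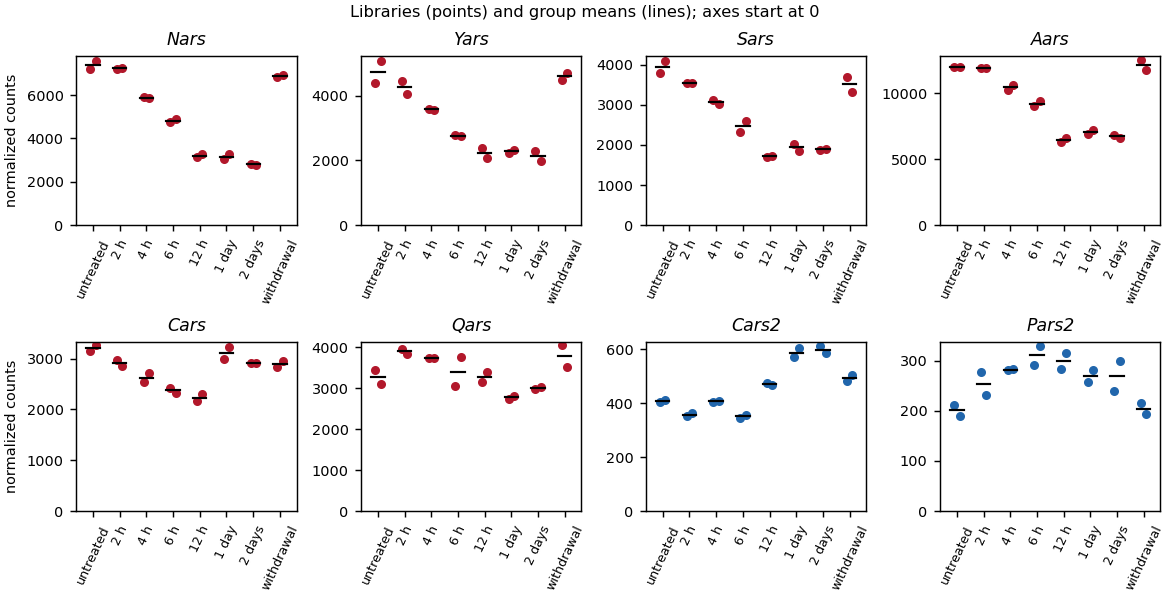
Each panel plots normalized counts (axis from 0) of 1 gene over the 8 groups, with a point per library and a line at the group mean; red marks cytosolic and blue mitochondrial genes. Nars, Yars, Sars and Aars decline from 4 h to 12 h and return after withdrawal, Cars is lowest at 12 h and near its untreated libraries at 1 day, Qars has no called change against untreated, and Cars2 and Pars2 lie above their untreated libraries at 1 and 2 days.

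Of the 8 enzymes of the multisynthetase complex measured here (Eprs, Iars, Lars, Mars, Qars, Rars, Kars and Dars), 2 were lower than untreated at 4 h and 3 at 6 h. This count was 7 at 12 h, 6 at 1 day and 7 at 2 days. Of all tested genes 10.2%, 13.4%, 18.3%, 17.7% and 23.8% were lower at these times. The median log2 change of the 8 enzymes was -0.12 at 4 h, -0.52 at 12 h and -0.71 at 2 days. Lars, the leucine enzyme, was at 6403 and 6779 (untreated), 6590 and 6630 (2 h), 5588 and 5496 (4 h), 5199 and 4981 (6 h), 4203 and 3825 (12 h), 3848 and 3372 (1 day), 3439 and 3473 (2 days) and 6573 and 6186 (withdrawal). Both 2-day libraries were below both untreated libraries, and the change was -0.93 ± 0.07 (limma adjusted p = 4.37e-07). Eprs, a bifunctional enzyme that loads glutamate and proline, held 10910 and 12030 (untreated), 12010 and 12640 (2 h), 11010 and 10860 (4 h), 10270 and 9986 (6 h), 7879 and 7929 (12 h), 7526 and 5613 (1 day), 6219 and 6363 (2 days) and 11290 and 10670 (withdrawal). Eprs was not called at 4 or 6 h (-0.18 ± 0.10 at 6 h), and the Lars call at 4 h was lost without either 4 h library (adjusted p = 0.11 and 0.13) or the second untreated library (0.11), so no order between the genes was established. Eprs was at -0.54 ± 0.10 at 12 h and -0.87 ± 0.10 at 2 days (limma adjusted p = 0.00115 and 1.42e-05).

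Iars and Mars, which load isoleucine and methionine, had their lowest means at 12 h. The difference between 12 h and 2 days was not tested, and 12 h lies inside the early block while 2 days lies outside it. Iars was at 8191 and 8577 (untreated), 8023 and 8197 (2 h), 7419 and 6834 (4 h), 6085 and 6151 (6 h), 4353 and 4395 (12 h), 5419 and 4378 (1 day), 5171 and 5454 (2 days) and 7850 and 7892 (withdrawal). The log2 change of Iars was -0.94 ± 0.08 at 12 h and -0.66 ± 0.08 at 2 days (limma adjusted p = 3.01e-06 and 2.76e-05). Mars was at 4390 and 4293 (untreated), 3822 and 4024 (2 h), 3282 and 3637 (4 h), 3109 and 2999 (6 h), 2210 and 2361 (12 h), 2875 and 3347 (1 day), 2649 and 2488 (2 days) and 4626 and 4640 (withdrawal). Every Mars library under auxin lay below both untreated libraries, and the change was -0.93 ± 0.08 at 12 h and -0.76 ± 0.08 at 2 days (limma adjusted p = 2.6e-06 and 5.67e-06). The exons of Mars and of Ddit3, an ATF4-induced gene that rose, overlap on opposite strands over 0.66% of the 50-base words of Mars.

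Kars, the lysine enzyme and one of those that also serves mitochondria, stepped down to 5312 and 5240 (12 h), 4992 and 5036 (1 day) and 4425 and 4180 (2 days) from 7662 and 7377 (untreated). Kars (-0.22 ± 0.06, limma adjusted p = 0.034) and Farsb, the beta subunit of the phenylalanine enzyme (-0.29 ± 0.08, limma adjusted p = 0.046), were the 2 cytosolic genes lower at 2 days than at 1 day, where 4.07% of tested genes were lower. Neither call lasted when a 2-day library was left out: the adjusted p was then 0.079 or 0.26 for Kars and 0.17 or 0.22 for Farsb. Without the first 1-day library it was 0.11 for Farsb. Rars, the arginine enzyme, was at -0.38 ± 0.07 at 12 h and -0.51 ± 0.07 at 2 days (limma adjusted p = 0.000836 and 4.61e-05). Dars, the aspartate enzyme, moved least among the called genes, at 3068 and 2924 normalized counts after 2 days and 3407 and 3796 without auxin (-0.26 ± 0.10, limma adjusted p = 0.0462). Without the second untreated library the adjusted p of Dars was 0.24, and without the first or second 2-day library 0.09 or 0.19.

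The remaining cytosolic genes lie outside that complex and moved by less than Nars. At 2 days Hars (histidine) was at -0.62 ± 0.07, Vars (valine) at -0.59 ± 0.10, Wars (tryptophan) at -0.55 ± 0.10 and Farsa, the alpha subunit of the phenylalanine enzyme, at -0.37 ± 0.08, with limma adjusted p-values from 1.09e-05 (Hars) to 0.00216 (Farsa). Vars was the 1 of these called at 6 h (-0.44 ± 0.10, limma adjusted p = 0.00798), and that call was lost without the first 6 h library. Exons of Farsb overlap those of Sgpp2 on the opposite strand over 10.1% of its 50-base words, and those of Hars overlap Hars2 over 7.53%, so reads of these stretches could have been assigned to either gene.

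All 3 scaffold genes of the complex were lower at 12 h, with log2 changes of -0.55 for Aimp1, -0.66 for Aimp2 and -0.45 for Eef1e1. They were lower at 2 days as well, with -0.27, -0.53 and -0.32. Of all tested genes 18.3% and 23.8% were lower at these times. In withdrawal against 2 days Aimp2 alone of the 3 scaffold genes was called (0.46, higher). Of the 8 enzymes of the complex 7 were higher, beside 22.2% of tested genes.

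Qars and Cars differed from the other cytosolic genes, and both were singled out because they go against their class. Qars, the glutamine enzyme, was at 3444 and 3104 normalized counts (untreated), 3949 and 3842 (2 h), 3738 and 3747 (4 h), 3052 and 3757 (6 h), 3158 and 3387 (12 h), 2739 and 2818 (1 day), 2986 and 3034 (2 days) and 4057 and 3507 (withdrawal). It was called in none of the 7 comparisons with untreated, and its log2 change at 2 days was -0.12 ± 0.10 (limma adjusted p = 0.331). Against 2 days Qars was higher after withdrawal (0.33, limma adjusted p = 0.0149), but not without either 2-day library (0.071 and 0.057) or the first withdrawal library (0.16). Cars, the cysteine enzyme, held 3147 and 3267 (untreated), 2963 and 2856 (2 h), 2531 and 2707 (4 h), 2430 and 2328 (6 h), 2156 and 2312 (12 h), 2994 and 3227 (1 day), 2915 and 2915 (2 days) and 2843 and 2955 (withdrawal). Cars was lower at 4, 6 and 12 h (-0.29, -0.43 and -0.52 ± 0.07, limma adjusted p = 6.54e-05 at 12 h). It was not called at 1 day (-0.04) or 2 days (-0.14), the longest times under auxin. Cars fell at times that all lie within the early block, and it was also lower at 6 and 12 h against 2 h (-0.29 and -0.38), though at 6 h not without any 1 of the 4 libraries (adjusted p from 0.076 to 0.17).

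**Figure D4:**
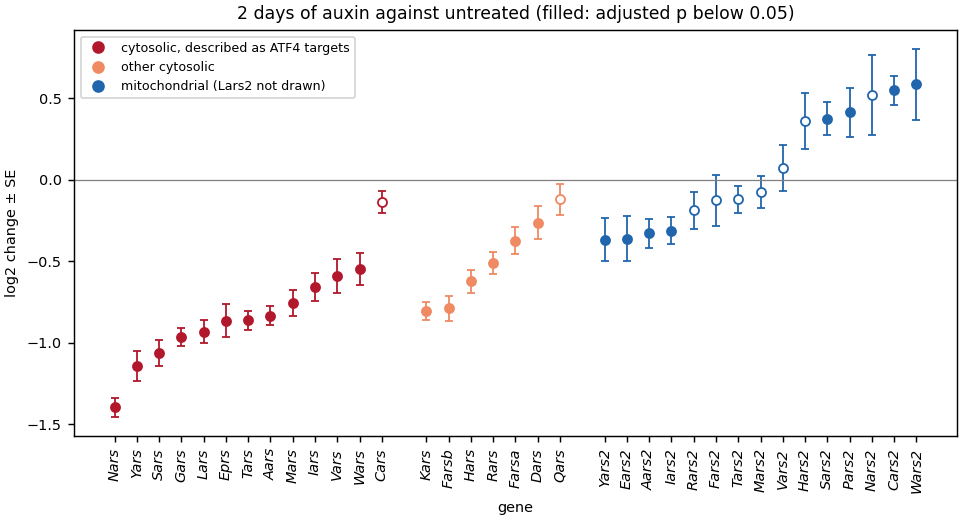
The y axis is the log2 change ± SE (limma) at 2 days of auxin against untreated, with 1 point per gene, sorted within each set, and filled points for an adjusted p below 0.05. In the cytosolic sets Cars and Qars alone are open, while the 15 mitochondrial genes drawn run from -0.37 (Yars2) to 0.58 (Wars2).

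The cytosolic genes described as ATF4 targets were set beside the rest. Of these 13 genes, the numbers lower than untreated were 9, 11, 13, 12 and 12 (4, 6 and 12 h, 1 and 2 days), with median log2 changes of -0.25, -0.43, -0.90, -0.78 and -0.86. Of the other 7 cytosolic genes (Kars, Farsa, Farsb, Hars, Rars, Dars and Qars), the numbers over the same times were 1, 1, 6, 5 and 6, with medians of -0.12, -0.16, -0.39, -0.30 and -0.51. At these times 10.2%, 13.4%, 18.3%, 17.7% and 23.8% of all tested genes were lower. The gene lower at 4 and 6 h in the second set was Farsb. It was at 3370 and 3087 (untreated), 3126 and 3435 (2 h), 2802 and 2643 (4 h), 2672 and 2503 (6 h), 2286 and 2174 (12 h), 2385 and 2178 (1 day), 1879 and 1854 (2 days) and 2852 and 2998 (withdrawal). Its call at 6 h was lost without the first untreated library (adjusted p = 0.057) or the second 6 h library (0.088). The difference between the sets was not tested. Both sets were written with earlier results known, so the list is not independent evidence. The 8 genes of the first set with a promoter window included all 5 that held the element, and 0 of the 5 genes of the second set with a window held it. Without Gars and Kars, which serve both compartments, 16 of 18 cytosolic genes were lower at 2 days with a median of -0.71.

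After withdrawal the cytosolic genes stood close to their untreated levels. Against 2 days 18 of 20 were higher after withdrawal (22.2% of tested genes higher) with a median of 0.73, and against 1 day 17 of 20 were higher (16.4%) with a median of 0.59. Against untreated 0 of 20 differed, where 2.79% of tested genes did, and their log2 changes lay between -0.17 (Sars) and 0.21 (Qars). Nars rose most against 2 days, by 1.30 ± 0.06 (limma adjusted p = 8.22e-09), followed by Yars at 1.10 ± 0.09. Cars (-0.01) and Dars (0.20) were not called higher. A p above the threshold does not show that the withdrawal and untreated levels were equal.

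The mitochondrial genes are described without Lars2, which is given apart. At 2 days 5 of these 16 were lower than untreated (among them Aars2, Ears2, Iars2 and Yars2) and 4 were higher (Cars2, Pars2, Sars2 and Wars2). The median of the 16 was -0.10. Of all tested genes 23.8% were lower and 21.0% higher at 2 days, so these counts are close to that background. At 12 h 2 were lower (Fars2 and Iars2, beside 18.3% of tested genes) and 2 higher (Mars2 and Pars2, beside 14.8%). At 1 day 2 were lower (Aars2 and Iars2, beside 17.7%) and 2 higher (Cars2 and Pars2, beside 15.9%). At 2 h 1 was higher (6.75% of tested genes higher), at 4 h 2 (8.86%) and at 6 h 2 (10.9%) with 1 lower (13.4% of tested genes lower). Against 2 days, 4 were higher after withdrawal (among them Iars2, Rars2 and Yars2, beside 22.2% of tested genes higher). There 3 were lower (Cars2, Sars2 and Wars2, beside 19.1% of tested genes lower). Between withdrawal and untreated 0 differed, where 2.79% of tested genes did. Most of the calls against untreated were not kept in every fit that left out 1 library. Most of those between withdrawal and 2 days were kept. The 5 lower genes became 3 without either untreated library and 2 without either 2-day library, and the 4 higher genes became 2 without the second untreated library or either 2-day library.

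Cars2, the mitochondrial cysteine enzyme, was the 1 mitochondrial gene called at 2 days under every alternative. It was at 405.3 and 412.3 normalized counts (untreated), 350.4 and 363.5 (2 h), 405.1 and 409 (4 h), 345.8 and 356.3 (6 h), 472.7 and 467.1 (12 h), 570.7 and 603.1 (1 day), 612.3 and 584.1 (2 days) and 483.4 and 502.4 (withdrawal). Both libraries of 12 h, 1 day and 2 days were above the untreated pair, and the log2 change was 0.52 ± 0.09 at 1 day and 0.55 ± 0.09 at 2 days (limma adjusted p = 0.00063 and 0.000271). The call at 1 day was lost when both groups were fitted alone (limma adjusted p = 0.11). Exons of Cars2 overlap those of Naxd on the opposite strand over 17.8% of its 50-base words, and no strand setting is given in the sources used here. At 2 days the cytosolic cysteine enzyme had no called change while its mitochondrial counterpart was higher.

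Pars2, the mitochondrial proline enzyme, held 211.5 and 189.6 (untreated), 277.3 and 230.6 (2 h), 280.6 and 282.8 (4 h), 291.9 and 329.7 (6 h), 283.4 and 316.1 (12 h), 257.2 and 281.4 (1 day), 238.5 and 298.7 (2 days) and 214.5 and 194.4 (withdrawal). All 12 auxin libraries were above both untreated libraries, and the change was called from 4 h to 2 days, at 0.49, 0.63, 0.58, 0.42 and 0.41 ± 0.15 (limma adjusted p = 0.00803 at 6 h and 0.036 at 2 days). None of the 5 calls lasted through leaving out each library, with an adjusted p of 0.29 at 2 days without the second 2-day library. Wars2 was at 171.8 and 190.5 at 2 days against 112.6 and 128.5 (untreated; 0.58 ± 0.22, limma adjusted p = 0.0425), and at 80.33 and 105.4 (withdrawal). The Wars2 call against untreated was lost without any of the 4 libraries (adjusted p from 0.06 to 0.18), whereas its fall from 2 days to withdrawal (-0.97 ± 0.22, limma adjusted p = 0.0031) was kept in every alternative. Sars2, at 778.7 and 729.7 at 2 days against 576.7 and 585.3 (untreated; 0.38 ± 0.10, limma adjusted p = 0.00768), was not called without the first 2-day library (0.063).

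Iars2, the mitochondrial isoleucine enzyme, was at 1425 and 1540 at 2 days against 1764 and 1918 (untreated) and 2261 and 2195 (withdrawal). Its fall at 2 days was -0.31 ± 0.08 (limma adjusted p = 0.00643, and 0.066 without the first 2-day library), and exons of Rab3gap2 on the other strand cover 36.6% of its 50-base words. Aars2 (-0.33 ± 0.09, limma adjusted p = 0.00811, and 0.079 without the first 2-day library), Ears2 (-0.36 ± 0.14, limma adjusted p = 0.0464) and Yars2 (-0.37 ± 0.13, limma adjusted p = 0.0353) were also lower. Ears2 was lost without any of the 4 libraries, and Yars2 without either untreated library or the second 2-day library.

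Mars2, the mitochondrial methionine enzyme, and Vars2, its valine counterpart, followed the block of early libraries. Mars2 ranged from 646.4 to 750.7 normalized counts across the 8 early libraries and from 463.7 to 638.9 elsewhere. It was called higher than untreated at 2, 4, 6 and 12 h (0.38, 0.32, 0.34 and 0.28 ± 0.10). With the trend over transcript length removed, an alternative chosen after seeing the data, these values were 0.12, 0.11, 0.11 and 0.00 (limma adjusted p from 0.56 to 0.99). The annotated Mars2 transcript has 11294 bases. The calls were also lost without the first untreated library at each of these times (limma adjusted p from 0.09 to 0.19). Vars2 was at 469.6 to 612.9 in the early libraries and 648.4 to 770.2 in the others, and was called lower at 6 h alone (-0.42 ± 0.14, limma adjusted p = 0.0441). That call was lost without the first untreated library (0.2) or the first 6 h library (0.3).

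Lars2, the mitochondrial leucine enzyme, was the most variable synthetase and was judged apart. It was at 15690 and 2810 normalized counts (untreated), 780.7 and 703.3 (2 h), 659.9 and 622.8 (4 h), 696.8 and 619.9 (6 h) and 675.7 and 790.7 (12 h). It was at 12300 and 3952 (1 day), 18290 and 11950 (2 days) and 11880 and 12050 (withdrawal). Replicates of the untreated and 1-day groups were far apart, and all 8 early libraries were below all 8 others. The called falls at 2, 4, 6 and 12 h ranged from -3.16 to -3.37 ± 0.59 (limma adjusted p from 0.001 to 0.00382). The fall at 2 h was not called when both groups were fitted alone (0.074). Leaving out 1 of the untreated libraries moved the falls at 2 to 12 h to between -1.92 and -4.61. Lars2 was not called against untreated at 1 day, 2 days or withdrawal (1.15 ± 0.59 at 2 days, limma adjusted p = 0.129).

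The libraries with high Lars2 were also those with high values of AY036118 and, apart from the second 1-day library, of Gm26917. In that library Gm26917 lay within the range of the early libraries. Gm26917 is a long noncoding RNA gene on chromosome 17 (chr17:39843013-39846341, plus strand). Gm26917 and AY036118 are known to collect reads of ribosomal RNA. Gm26917 was at 7093 and 2778 (untreated), 1664 to 2174 in the early libraries, 4498 and 1948 (1 day), 8496 and 6356 (2 days) and 5844 and 6286 (withdrawal). AY036118 was at 311.7 and 66.37 (untreated), 2.062 to 27.4 in the early libraries, 125.9 and 80.78 (1 day), 261.4 and 177 (2 days) and 223.7 and 304.9 (withdrawal). The main Lars2 transcript of 3894 bases shares a stretch of 52 bases (bases 3278 to 3329) with Gm15564, an antisense RNA gene on chromosome 16. The part of ribosomal RNA reads in the Lars2 values was not tested. The 5 tested genes most like Lars2 by Pearson correlation of log2(value + 1) over the 16 libraries, which share these blocks and their processing, were Sohlh2 (0.99), Gm14511 (0.99), Xlr3c (0.98), Etnk2 (0.97) and Fkbp6 (0.97). Xlr3c was at 178 and 26.5 (untreated) and at 6.134 to 15.57 in the early block.

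**Figure D5:**
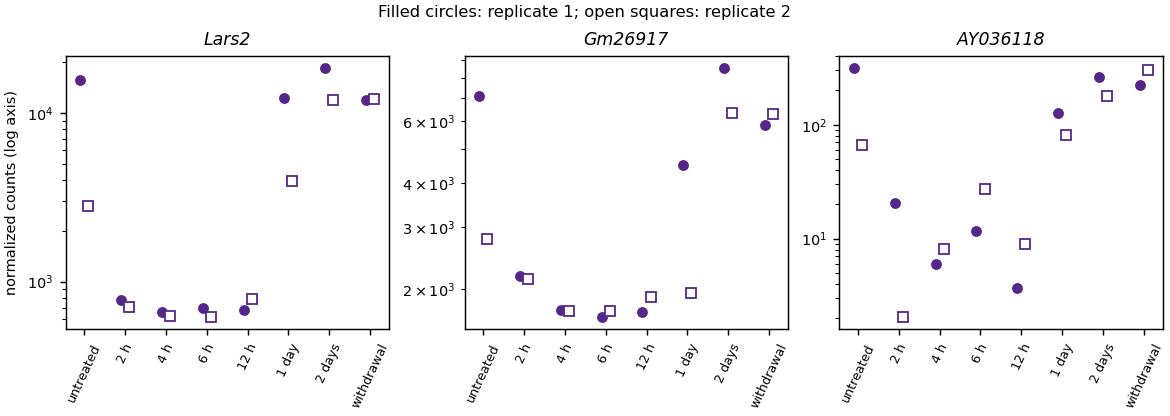
The log y axes give normalized counts of Lars2, Gm26917 and AY036118 in the 8 groups, with filled circles for replicate 1 and open squares for replicate 2. In all 3 panels the first untreated library is above the second, and for Lars2 and AY036118 the libraries of 2 to 12 h lie below all others.

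Without auxin the 2 classes also stood at different levels per length, as normalized counts per kb of the main transcript. The cytosolic genes ran from 995.3 (Cars) to 3745 (Kars) with a median of 1606. The mitochondrial genes without Lars2 ran from 27.33 (Wars2) to 429.1 (Yars2) with a median of 187, so the classes did not overlap. Gars (3499 ± 18.0, SD, n = 2) stood just below Kars (3745 ± 100.4), and below these Nars was at 2686 ± 95.1. Dars and Lars (1656 each) and Yars (1626 ± 167.9) did not differ beyond their spread. At the other end Mars2 (50.9 ± 3.2) and Nars2 (52.8 ± 1.2) overlapped within their SD. The SE of a log2 change ran from 0.06 to 0.10 over the cytosolic genes (median 0.08) and from 0.08 to 0.24 over the 16 mitochondrial genes without Lars2 (median 0.13), so these ranges overlapped.

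Other genes of the pathway were taken from lists. In mitochondria glutaminyl-tRNA is made by a transamidation step, for which Qrsl1, Gatb and Gatc encode the subunits. At 2 days Gatb (-0.85) and Gatc (-0.55) were lower and Qrsl1 (0.29) was not called, although Qrsl1 was higher at 12 h (0.37). Mtfmt, which formylates the mitochondrial initiator tRNA, was not called at 2 days (0.10). Xpot, the exporter of tRNA from the nucleus, was at 5194 and 5047 (untreated), 3964 and 3863 (12 h), 2881 and 2879 (2 days) and 4627 and 4811 (withdrawal). Its libraries at 2 days did not overlap the untreated ones, and its log2 changes were -0.39 at 12 h and -0.83 at 2 days, both called. Of the 8 genes of this related list, 5 were lower at 12 h (Aarsd1, Dtd1, Prorsd1, Pstk and Xpot) and 2 at 2 days (Dtd1 and Xpot), where 18.3% and 23.8% of all tested genes were lower. The count at 2 days is close to that background.

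Genes of the ATF4 program, both amino acid genes and others such as Atf4, Eif2ak4 and Cebpb, were listed for comparison. Of 26 such genes 6, 12 and 16 were lower at 2, 4 and 6 h, beside 8.45%, 10.2% and 13.4% of tested genes. At each of 12 h, 1 day and 2 days 19 were lower, beside 18.3%, 17.7% and 23.8%. At 2 days 3 were higher, a smaller share than the 21.0% of all tested genes called higher. Among those lower at 2 days were Psat1 (-2.04) and Phgdh (-1.97) of serine synthesis, Mthfd2 (-1.74) of the mitochondrial folate pathway and Chac1 (-5.05). The 3 that were higher were Ddit3 (1.96), Sesn2 (0.68) and Ddit4 (1.97), stress genes that other factors are also known to induce. Atf4 mRNA itself was at 4862 and 5904 (untreated), 3261 and 3261 (4 h), 2952 and 2901 (12 h), 3859 and 3513 (2 days) and 5647 and 4955 (withdrawal). Both Atf4 libraries of 4 h, 12 h and 2 days were below the untreated pair, with log2 changes of -0.72, -0.87 and -0.54, all called. Asns, the asparagine synthetase gene whose product Nars uses, fell less than Nars did, by 0.23 on the log2 scale at 2 days. After withdrawal 18 of the 26 were higher than at 2 days and 3 were lower, beside 22.2% and 19.1% of tested genes. ATF4 protein was not measured.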

How the data were processed

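mRNA libraries of 8 groups of 2 were analysed, and times, doses and replicate numbers are from the labels. The deposited table holds a signal in normalized read counts, which the authors made per the submitters' processing notes with Trim Galore, STAR, RSEM and DESeq2 on mm10 (the GRCm38 assembly). Not given in the sources used here: versions, annotation, strand setting, and how the table came to hold 14552 genes. Low values (up to 20 steps) came out whole, within 0.1 of a step, for 72.5% to 99.1% of values of the 1884 single-transcript genes in each library and for 36.0% to 45.1% elsewhere, so whole reads could not be recovered for all genes and no count test was run. The step was 0.89 to 1.25, and depth is the total divided by it.

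Values were used as log2(value + 1), which understates changes of low genes. Genes with a mean of at least 10 were tested in 1 limma 3.58.1 model (R 4.3.3) with a mean per group, an intensity trend and 8 residual degrees of freedom. Benjamini-Hochberg adjustment ran over the 13355 tested genes within each of 13 comparisons, and calls used 0.05. The code was tested on simulated data. The members, lists and comparisons were chosen with earlier results of these data known. Every gene that the symbol rule finds could be named, and other genes only from the lists or, for Lars2, as its 5 nearest in correlation. Values per library were printed for genes called in 4 or more of 7 comparisons with untreated, the largest changes and genes that go against their class. Lengths, positions and shared 50-base words are from GENCODE M21, which held 14467 of the identifiers and lacked 85. Alternatives were other pseudocounts, filters and scalings, a replicate block, library weights, fits of the compared groups alone and leaving out each library. Removal of the trend with transcript length and separate fits of the 2 blocks of libraries were added after seeing the data. One mitochondrial member is counted but not described by name. Results are not reported here for Col1a2, Col3a1 and Elf5, which were not analysed here.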

Additional observations from a re-analysis of the deposited data

How the results depend on the processing

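Of 188 calls of a synthetase in a comparison, 2478 of 2765 alternative values kept the call, 287 did not and 0 reversed, and among the 18 cytosolic falls at 2 days 17 were kept in every alternative (Dars was not). The count of lower cytosolic genes at 4 h, 10, was 5 with library weights, 0 with both groups fitted alone and 2 to 6 without one library. At 1 day it was 10 in place of 17 with both groups fitted alone, and at 6 h against 2 h it was 6 to 8 in place of 12 without one library. Of mitochondrial genes at 2 days, the 5 lower ones became 3 with rescaling by upper quartiles, with library weights, with the length trend removed or with untreated, 1 day, 2 days and withdrawal fitted alone, 1 with both groups fitted alone and 2 to 3 without one library. The 4 higher ones became 2 with library weights, with both groups fitted alone or with those 4 groups fitted alone, and 2 to 4 without one library. The causes of these differences were not tested. Fits that left out groups or libraries also had fewer residual degrees of freedom, and the part of this was not tested. Of 408 alternative class medians, 91 moved by more than the spread between replicates and 4 by over 0.1. Same-numbered libraries did not deviate together (correlations of -0.061 to 0.066 over 28 pairs of groups), so the replicate block is given here only: it kept 179 of the 188 calls, left the cytosolic counts at 18 for 2 days and 19 for 12 h, gave 11 for 6 h against 2 h, and gave 4 lower and 3 higher mitochondrial genes at 2 days. With 2 libraries per group, where a lone library is assumed to vary like the other groups, the SE (median 0.16 over all tested genes) limits what could be called. At 2 days its median was 0.13 for the mitochondrial genes without Lars2 and 0.08 for the cytosolic genes.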
